A study of Mus musculus with 4 samples.

Results

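The MYC, MAX and MXD network was described here by 9 genes, Myc, Max, Mxd1, Mxd3, Mxd4, Mxi1, Mnt, Mlx and Mga, found by symbol among the 40213 gene symbols of each library. The cells were RAW264.7, a mouse macrophage line. Titles separated 2 libraries named Gel from 2 named CuNZ@Gel, all from cells kept for 48 h with a hydrogel. What the Gel arm contained, and what CuNZ stands for, is left unexplained in the labels. The treatment text speaks of CuNZ@Gel alone, so the Gel arm rests on the titles. All 4 libraries share the line, the culture time and the RNA and library kits, and nothing says that replicates were separate cultures, so each p measures the spread between libraries, which may be technical.

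MAX is a small basic helix-loop-helix leucine zipper protein at the centre of this network. It pairs with MYC or its paralogs to bind E-boxes, of which CACGTG is the canonical form, and MYC-MAX dimers recruit acetyltransferase complexes to growth genes. MXD proteins and MNT compete for MAX and bring the SIN3-HDAC corepressor to the same sites, MGA carries MAX into a variant Polycomb complex, and MLX is the counterpart of MAX for the glucose-sensing factor MondoA (gene Mlxip). In macrophages MYC is known from proliferation and from alternative activation.

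In these libraries 4 of the 5 MXD and MNT repressor genes were lowered with CuNZ@Gel, where 34.8% of all tested genes were lowered. Mxd1 did not pass the test. Mxd3 lay near the filter for low levels, which it reached in both Gel libraries and in CuNZ@Gel replicate 2 (1.08 scaled CPM). With no filter the Mxd3 call was lost (limma, adjusted p = 0.0624). In that setting 35.4% of all genes were called, against 67.1% with the filter. The part of the filter in the Mxd3 call was not tested. Under scaling by total reads only, Mxi1 no longer passed and Mxd1 passed as raised. Mxd4, Mnt, Mxd3 and Mxi1 fell, by 0.71, 0.44, 0.81 and 0.23 on the log2 scale, and Mga and Mlx rose by 0.83 and 0.58. Myc itself was near the bottom of the measured range in all 4 libraries. The MYC paralog with a high level was Mycn, which is outside the 9 genes, and it fell by 0.41. Levels are in scaled CPM, the depth-normalised CPM divided by 1 further factor per library, and log2 changes are CuNZ@Gel minus Gel on log2(scaled CPM + 1), which understates changes of genes at low levels.

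Of the 9 genes, 2 were raised and 4 lowered at an adjusted p under 0.05 in limma, with Benjamini-Hochberg adjustment over 11588 tested genes. That is 66.7% of the genes, and the share of all tested genes was 67.1% (32.2% raised and 34.8% lowered), so the count of changed members lay at the background. Their median log2 change was -0.08, against -0.03 for all tested genes. For 8 of the 9 genes the Gel and CuNZ@Gel values lay apart, which was so for 83.2% of all tested genes. With libraries scaled by total reads only, the median of all genes moved by 0.18, to 0.15. Under that scaling the split over the 9 genes became 3 raised and 3 lowered, with a median of 0.10. After the length and GC correction described for Mycn the median was 0.08, so its sign depended on the processing. The 9 genes passed the filter of 1 scaled CPM in 2 libraries. Mxd3 passed it with both Gel libraries, where it was higher, and with CuNZ@Gel replicate 2 (1.08 scaled CPM). How far its call as lowered rests on the filter was not tested. Of the 9 genes, 7 reached 5 scaled CPM in at least 2 libraries.

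**Figure D1:**
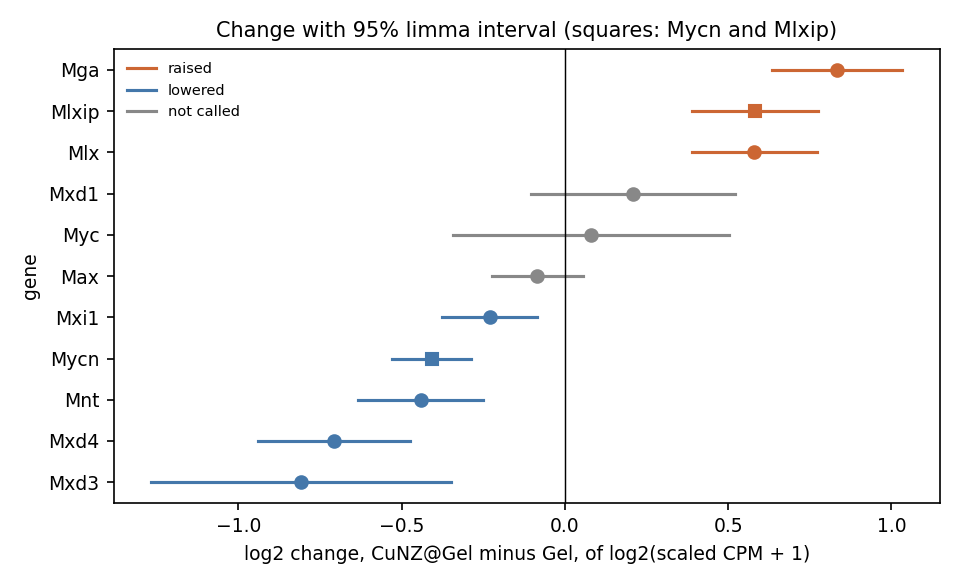
Log2 change between the groups (x axis, CuNZ@Gel minus Gel) for the 9 network genes (circles) and the partner genes Mycn and Mlxip (squares), with bars for the 95% limma interval. Mga, Mlxip and Mlx lie right of 0, and Mxi1, Mycn, Mnt, Mxd4 and Mxd3 left of it. The bars of Mxd1, Myc and Max cross 0.

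The promoters of all members with a window, called or not, were searched for the network's own binding motif. RefSeq windows of build GRCm38.p6, which differs from the GRCm39 build named for the files, reached from 250 bases before to 50 bases after each gene start and were matched for 8 of the 9 members. Myc had no entry. CACGTG, which reads the same on both strands, occurred in 4 of these 8 genes, Mlx, Max, Mnt and Mxd4. It occurred in 12.1% of the tested genes with a window and in 8.09% of all genes with a window. The sequences of the 2 raised genes and of 2 lowered genes are shown, upstream bases only, because they let the motif be set beside opposite changes. Capitals mark CACGTG. The windows are chr11:101087040-101087289 (plus strand) for Mlx, chr2:119896978-119897227 (plus strand) for Mga, chr5:34187711-34187960 (minus strand) for Mxd4 and chr11:74830674-74830923 (plus strand) for Mnt. Max is shown by 30 bases around its motif, chr12:76962234-76962263 (minus strand).
Mlx: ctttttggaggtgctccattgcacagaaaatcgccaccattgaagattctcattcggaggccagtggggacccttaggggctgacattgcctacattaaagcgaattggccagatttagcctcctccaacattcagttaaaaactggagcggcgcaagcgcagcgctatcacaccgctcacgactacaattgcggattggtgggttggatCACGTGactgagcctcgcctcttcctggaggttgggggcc
Mga: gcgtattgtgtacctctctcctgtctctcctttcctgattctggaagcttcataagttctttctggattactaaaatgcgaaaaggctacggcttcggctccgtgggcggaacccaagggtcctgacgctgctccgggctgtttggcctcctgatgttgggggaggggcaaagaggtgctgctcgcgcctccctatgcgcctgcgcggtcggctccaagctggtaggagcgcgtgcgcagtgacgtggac
Mxd4: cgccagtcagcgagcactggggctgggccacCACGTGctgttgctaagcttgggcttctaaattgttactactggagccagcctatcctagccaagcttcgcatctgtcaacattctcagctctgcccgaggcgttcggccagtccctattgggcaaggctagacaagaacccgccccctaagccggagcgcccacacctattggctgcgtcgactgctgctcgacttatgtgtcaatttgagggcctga
Mnt: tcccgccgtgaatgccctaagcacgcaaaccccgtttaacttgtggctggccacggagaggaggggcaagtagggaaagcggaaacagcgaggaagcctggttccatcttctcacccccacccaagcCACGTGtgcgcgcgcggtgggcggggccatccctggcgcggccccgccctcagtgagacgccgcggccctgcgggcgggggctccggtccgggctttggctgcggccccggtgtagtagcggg
Max: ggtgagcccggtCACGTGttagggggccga
The motif began 40 bases upstream of the start in Mlx, which rose, and 123 and 219 bases upstream in Mnt and Mxd4, which fell. In Max, which did not pass the test, it began 3 bases upstream and spanned the start. Mga, Mxd1, Mxd3 and Mxi1 had no CACGTG in these windows. The related motif CACGCG, searched on both strands, was found in 1 of the 8 members, Mga, 21 bases upstream of its start, and in 20.2% of the tested genes. A match is a description of the letters and not evidence of binding.

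Myc, the founding member, had 1.16 and 1.56 scaled CPM in the Gel libraries and 1.58 and 1.40 in the CuNZ@Gel libraries. These values rest on 16, 20, 25 and 22 reads. The groups overlapped, and Myc was the only member for which they did. The log2 change was 0.08 with a 95% interval from -0.34 to 0.50 (limma, adjusted p = 0.741), so neither a fall nor a rise within that interval was detectable at this depth. The ratio of reads per depth was 1.10, with an exact 95% interval from 0.698 to 1.75 that covers counting error only. By level per kilobase of its longest annotated transcript, Myc stood at place 10564 among 11107 tested genes with a transcript.

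Mycn, the paralog that encodes N-MYC, had 538 and 518 scaled CPM in Gel and 391 and 404 in CuNZ@Gel, a log2 change of -0.41 ± 0.0584 (SE; limma, adjusted p = 3.13e-06). Both Gel libraries lay above both CuNZ@Gel libraries. The fall was -0.22 with libraries scaled by total reads only and -0.26 once each library was adjusted for length and GC content of the transcripts, and it passed the test in both. Per kilobase, Mycn stood at 197 ± 5.24 scaled CPM in Gel against 149 ± 3.36 with CuNZ@Gel (SD over 2 libraries each), at place 293 of 11107. Of the summed Myc and Mycn level per kilobase, Mycn made up 99.7% ± 0.0681 in Gel and 99.6% ± 0.0457 in CuNZ@Gel. Mycl, the remaining paralog, was listed at 0 in all 4 libraries. The labels do not say which MYC paralog the line carries. Whether the low Myc value holds for the line beyond these RNA libraries was not tested.

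Max, the shared dimer partner, had 107 and 108 scaled CPM in Gel and 101 and 101 in CuNZ@Gel, on 1385 to 1604 reads per library. The CuNZ@Gel values were the lower ones and did not overlap with Gel. The change of -0.08 (95% interval -0.22 to 0.06) did not pass limma's test (adjusted p = 0.273). Its sign depended on the scaling, with 0.10 for total reads only and 0.08 after the length and GC correction, neither past the threshold.

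**Figure D2:**
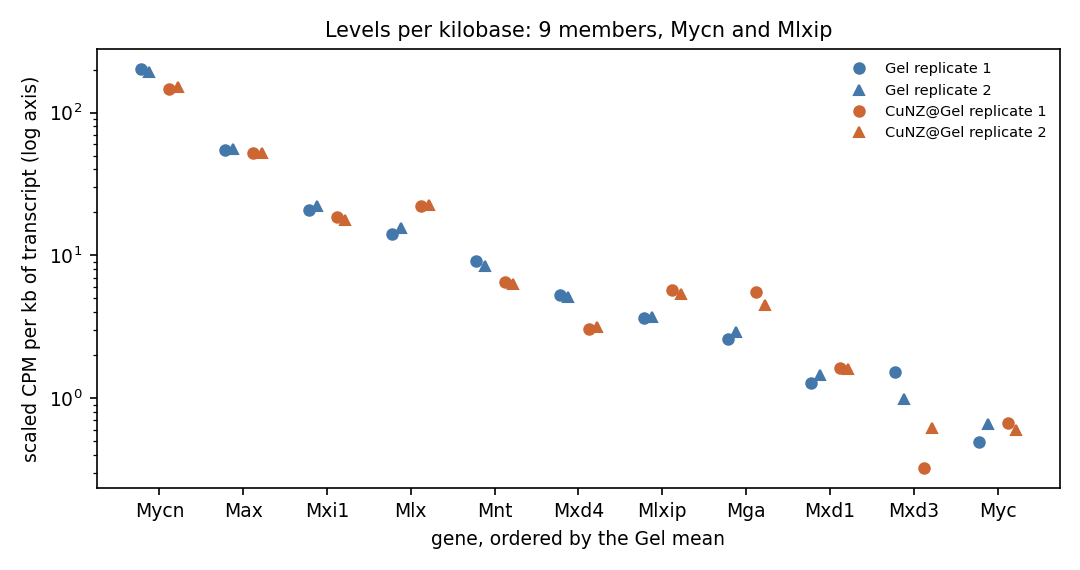
Level per kilobase of the longest annotated transcript (y axis, log scale, scaled CPM per kb) in each library for the 9 network genes, Mycn and Mlxip (x axis). Blue marks Gel and orange CuNZ@Gel, circles replicate 1 and triangles replicate 2. Mycn lies above Max in all 4 libraries, and Myc and Mxd3 lie at the bottom.

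Levels of different genes can be compared per kilobase of transcript, on the assumption that the longest transcript is the one made. In Gel the order of the 9 genes was Max (55.3 ± 0.383 scaled CPM per kb), Mxi1 (21.4 ± 0.827), Mlx (14.8 ± 1.09), Mnt (8.83 ± 0.465), Mxd4 (5.23 ± 0.136), Mga (2.76 ± 0.220), Mxd1 (1.37 ± 0.115), Mxd3 (1.26 ± 0.393) and Myc (0.581 ± 0.120) (SD, n = 2). Neighbours in this order did not overlap except Mxd1 and Mxd3. In CuNZ@Gel, Mlx (22.4 ± 0.202) stood above Mxi1 (18.2 ± 0.660), Mga (4.99 ± 0.742) above Mxd4 (3.12 ± 0.0735), and Myc (0.636 ± 0.0542) beside Mxd3 (0.472 ± 0.208), whose libraries overlapped. Mycn alone exceeded Max, at 357% ± 12.0 of the Max level per kilobase in Gel and 286% ± 6.31 in CuNZ@Gel.

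Mxi1, a member of the MXD family also called MXD2, was the repressor with the highest level. It had 105 and 111 scaled CPM in Gel and 94.2 and 89.5 in CuNZ@Gel. Both CuNZ@Gel libraries were lower, by -0.23 ± 0.0699 on the log2 scale (SE; limma, adjusted p = 0.00642). This fall was lost with total reads only (-0.04, adjusted p = 0.595) and without Gel replicate 2 (-0.19, adjusted p = 0.0943), and it was -0.45 after the length and GC correction.

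Mxd4, an MXD protein known from differentiating cells, had 24.6 and 23.7 scaled CPM in Gel and 14.2 and 14.7 in CuNZ@Gel. The Gel values were 1.68 times those of CuNZ@Gel, with a log2 change of -0.71 ± 0.112 (SE; limma, adjusted p = 1.06e-05). The groups were well apart, and the fall passed the test under all processing alternatives but the test against a minimum fold of 1.5.

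Mxd3, an MXD protein linked to S phase and proliferation, had 2.68 and 1.71 scaled CPM in Gel and 0.567 and 1.08 in CuNZ@Gel. The reads were 37 and 22 against 9 and 17. Each CuNZ@Gel library lay below each Gel library, and the log2 change was -0.81 ± 0.220 (SE; limma, adjusted p = 0.00289). On a scale with a pseudocount of 0.1 it was -1.34, and with limma-voom on recovered reads -1.43. The ratio of reads per depth was 0.371 (exact 95% counting interval 0.225 to 0.598). Without Gel replicate 1 the call was lost (-0.59, adjusted p = 0.0598), as it was without CuNZ@Gel replicate 1 (-0.60, adjusted p = 0.0604) and with no filter (adjusted p = 0.0624). Its gene overlaps Prelid1 in the RefSeq table, which had 243, 225, 195 and 207 scaled CPM in the same order and fell by 0.22. Whether strand was used in counting is not given in the sources used here, so the Mxd3 level is uncertain.

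Mxd1, the first MXD protein described and a gene of myeloid differentiation, had 6.01 and 6.77 scaled CPM in Gel and 7.63 and 7.43 in CuNZ@Gel. Both CuNZ@Gel libraries were higher, but the change of 0.21 (95% interval -0.10 to 0.52) did not pass limma's test (adjusted p = 0.225). With total reads only it passed, at 0.37 (adjusted p = 0.0328). Mxd1 was thus the MXD gene whose value lay above 0 under each scaling run, while Mxd3, Mxd4 and Mxi1 lay below.

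Mnt, the widely expressed MAX partner that antagonizes MYC, had 42.0 and 39.0 scaled CPM in Gel and 30.1 and 29.0 in CuNZ@Gel. The groups did not overlap, and the log2 change was -0.44 ± 0.0920 (SE; limma, adjusted p = 2.57e-04). With total reads only it was -0.26 and still passed.

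The 4 MXD genes together had 29.3 ± 0.413 scaled CPM per kb in Gel against 23.4 ± 0.409 with CuNZ@Gel (SD over 2 libraries each), a description without a test. Their summed level was lower in both CuNZ@Gel libraries. As a share of all MAX partners including Mycn it was 12.3% ± 0.427 in Gel and 12.7% ± 0.359 in CuNZ@Gel, values whose libraries overlapped. Among the MAX partners without Mycn it was 70.7% ± 0.506 and 66.0% ± 1.41, lower in both CuNZ@Gel libraries, so the direction depends on whether Mycn is counted. The share of Mycn was 82.6% ± 0.480 and 80.7% ± 0.955. Within the sum that includes Mycn, Mga went from 1.15% ± 0.116 to 2.71% ± 0.432 and Mxd4 from 2.19% ± 0.0116 to 1.69% ± 0.0217. Mxi1 went from 8.98% ± 0.532 to 9.90% ± 0.465. The libraries did not overlap in these 3, nor in any other single partner of that sum. Among all tested genes the levels of the groups lay apart for 83.2%. Without Mycn the Mxi1 shares were 51.7% ± 1.64 and 51.4% ± 0.135 and overlapped.

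**Figure D3:**
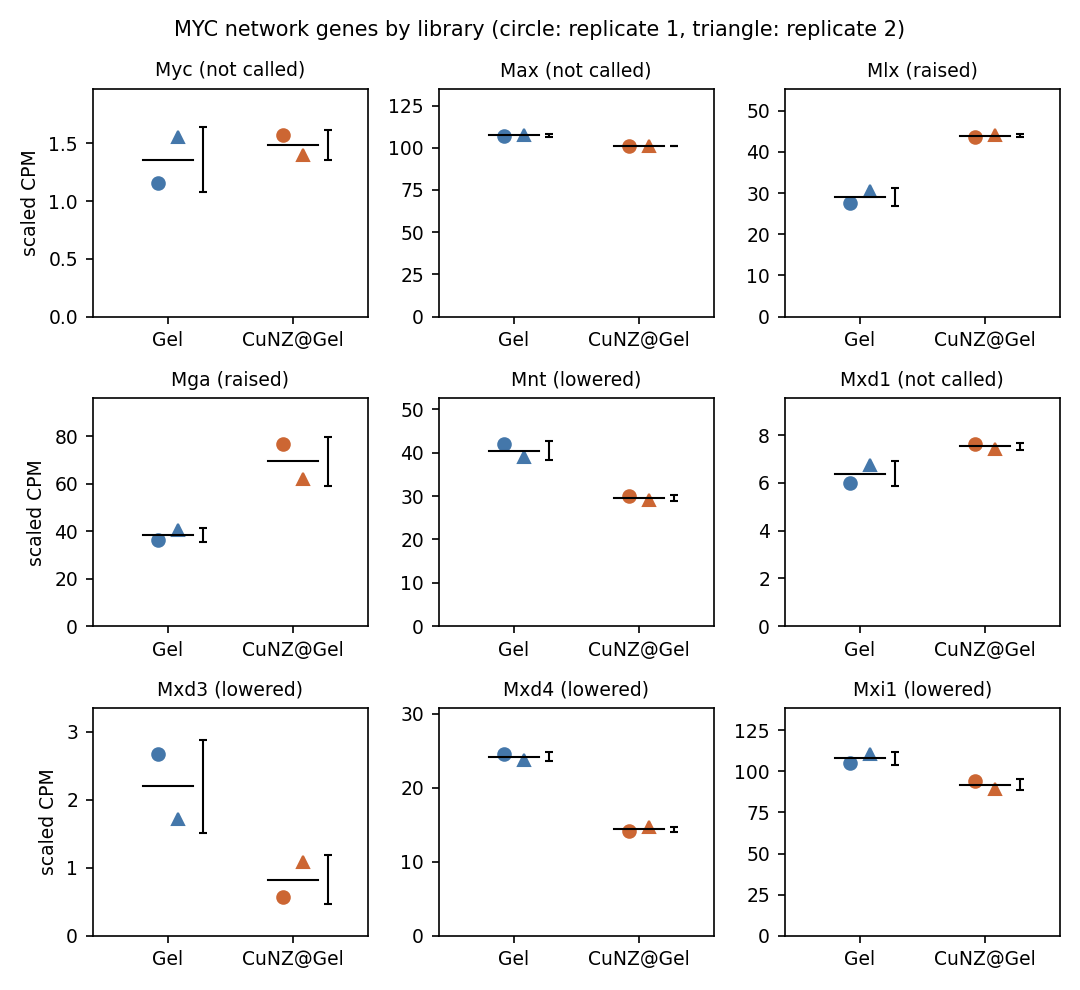
Scaled CPM (y axis, from 0) of each of the 9 network genes in each library, with circles for replicate 1 and triangles for replicate 2. Horizontal lines are group means and bars 1 SD of the 2 libraries. Mga and Mlx are higher in both CuNZ@Gel libraries, Mnt, Mxd3, Mxd4 and Mxi1 are lower, and the Myc points overlap.

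Mga, a giant protein with a T-box and a MAX-binding domain that scaffolds the Polycomb complex PRC1.6, had the largest rise of the 9. It had 36.2 and 40.6 scaled CPM in Gel and 76.8 and 62.2 in CuNZ@Gel. Both CuNZ@Gel libraries were higher, 1.81-fold by the means, and they differed from each other more than the Gel pair did. The log2 change was 0.83 ± 0.0955 (SE; limma, adjusted p = 1.37e-07), and Mga was the only member past a test against a minimum fold of 1.5 (adjusted p = 0.0488, against 8.76% of all tested genes raised by that test). Its transcript, 13931 bases, is the longest of the 9, and over 11107 tested genes, which share the same 4 libraries, the Pearson r between log2 change and log2 length of the transcript was 0.285, as a description. After correction of each library for length and GC content the Mga change was 0.24 and still passed in limma (adjusted p = 0.00788). Without CuNZ@Gel replicate 1 it was 0.68, and without replicate 2 it was 0.98.

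Of 11 further PRC1.6 genes, 3 rose and 5 fell, and the median was 0.07. The share called, 72.7%, was near the 67.1% of all tested genes. With total reads only, 5 rose and 4 fell and the median was 0.25, beside 0.15 for all tested genes. After the length and GC correction the median was -0.11, beside -0.04 for all tested genes. E2f6 and Tfdp1, which encode the E2F subunit and its dimer partner, rose by 0.70 and 0.46. Tfdp2, a further dimer partner of E2Fs, fell by 1.12, the RING ubiquitin ligase gene Ring1 by 1.08, and Cbx3, which encodes the heterochromatin protein HP1 gamma, by 0.54. The remaining changed genes of the list, chosen with values in view, were Yaf2, raised by 0.30, and Cbx1 and Rnf2, at -0.51 and -0.36.

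Mlx, the hub of the glucose-sensing branch, had 27.6 and 30.6 scaled CPM in Gel and 43.7 and 44.2 in CuNZ@Gel. Both CuNZ@Gel libraries were higher, 1.51-fold by the means, with a log2 change of 0.58 ± 0.0920 (SE; limma, adjusted p = 1.17e-05). Adjusting for length and GC content gave 0.76. The gene overlaps Psmc3ip in the RefSeq table, which moved the other way, from 19.0 and 17.3 scaled CPM to 13.6 and 14.4. The use of strand in counting is not given, so the Mlx level is uncertain, as for Mxd3. In the same RefSeq annotation Mxd1 and Mxi1 each overlap a long noncoding RNA gene, and Mga overlaps a pseudogene. Whether these took reads was not tested.

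Mlxip, which encodes MondoA, rose with its partner, from 26.5 and 27.1 to 41.7 and 39.5 scaled CPM, a log2 change of 0.58 (limma, adjusted p = 1.18e-05). Adjusting for length and GC content gave 0.33, which still passed. Mlxipl, which encodes the related factor ChREBP, had at most 0.145 scaled CPM, under the level of 3 reads in each library, and was not tested. The ratio of Mlx to Mlxip per kilobase was 404% ± 22.9 in Gel and 403% ± 19.4 in CuNZ@Gel. Of the textbook MondoA-MLX targets, Txnip, the thioredoxin-interacting brake on glucose uptake, went from 498 and 504 to 384 and 391 scaled CPM, a fall of -0.37 (limma, adjusted p = 9.49e-06). Its paralog Arrdc4 had 16.4 and 17.0 against 13.7 and 13.9 and did not pass in limma (-0.25, adjusted p = 0.0651). It passed after the length and GC correction (-0.33, adjusted p = 0.0143) and was at -0.08 with total reads only (adjusted p = 0.58). Txnip was at -0.18 with total reads only and still passed.

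The proteins through which the network acts were followed in 3 lists. Of 12 cofactors of MYC, 2 rose and 7 fell, with a median of -0.24. That is 75.0% called, beside 67.1% of all tested genes. Scaled by total reads only, 4 rose and 3 fell and the median was -0.05, beside 0.15 for all tested genes. Trrap, the scaffold of MYC's acetyltransferase complexes, rose by 0.86, and Ep400 of the same complexes, named after its values were seen, by 0.26. Ruvbl2, Kat5, Wdr5 and Smarcb1, which encode an ATPase, an acetyltransferase, a chromatin adaptor and a remodelling subunit, fell by 0.73, 0.62, 0.52 and 0.37. Trrap was at 0.43 after the length and GC correction, and Smarcb1 at -0.18 with total reads only, where its call was lost (adjusted p = 0.0511).

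Of 17 genes of the SIN3-HDAC corepressor, which MXD proteins and MNT recruit, 4 rose and 7 fell, with a median of -0.04. The share called, 64.7%, was near the 67.1% of all tested genes. With total reads only, 6 rose and 3 fell and the median was 0.14, beside 0.15 for all tested genes. With upper-quartile factors, 4 rose and 5 fell. Arid4b and Arid4a, which encode large chromatin-binding subunits, rose by 1.31 and 0.90, and Sap130 by 0.49. Hdac1, named after its values were seen, rose by 0.33. Ing2, a reader of methylated histone H3, fell by 0.77 and Sap30 by 0.44. The Sap30 call was lost after the length and GC correction (-0.14, limma adjusted p = 0.0507). Of the scaffold genes, Sin3a was at -0.02 (95% limma interval -0.18 to 0.13) and Sin3b, named after its values were seen, at -0.23 (-0.41 to -0.05). These intervals overlapped, and the difference was not tested.

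Of 12 genes of MYC protein turnover, 3 were raised and 3 lowered (median -0.07; 6 of 12 called, beside 67.1% of all tested genes), against 5 and 2 with total reads only and 2 and 4 after the length and GC correction. Fbxw7, the ubiquitin ligase subunit that marks phosphorylated MYC and N-MYC for degradation, fell from 50.8 and 49.8 to 29.6 and 28.9 scaled CPM, by 0.76 on the log2 scale. Stub1, a chaperone-linked ubiquitin ligase, fell by 0.46, and Fbxl14, named after its values were seen, by 0.27. Huwe1, a large ubiquitin ligase, rose by 0.67, Cip2a, which protects MYC from dephosphorylation, by 0.47, and Gsk3b, the kinase that primes MYC for Fbxw7, by 0.40. After the length and GC correction, Huwe1 (0.10), Gsk3b (-0.0195) and Stub1 (-0.10) no longer passed.

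**Figure D4:**
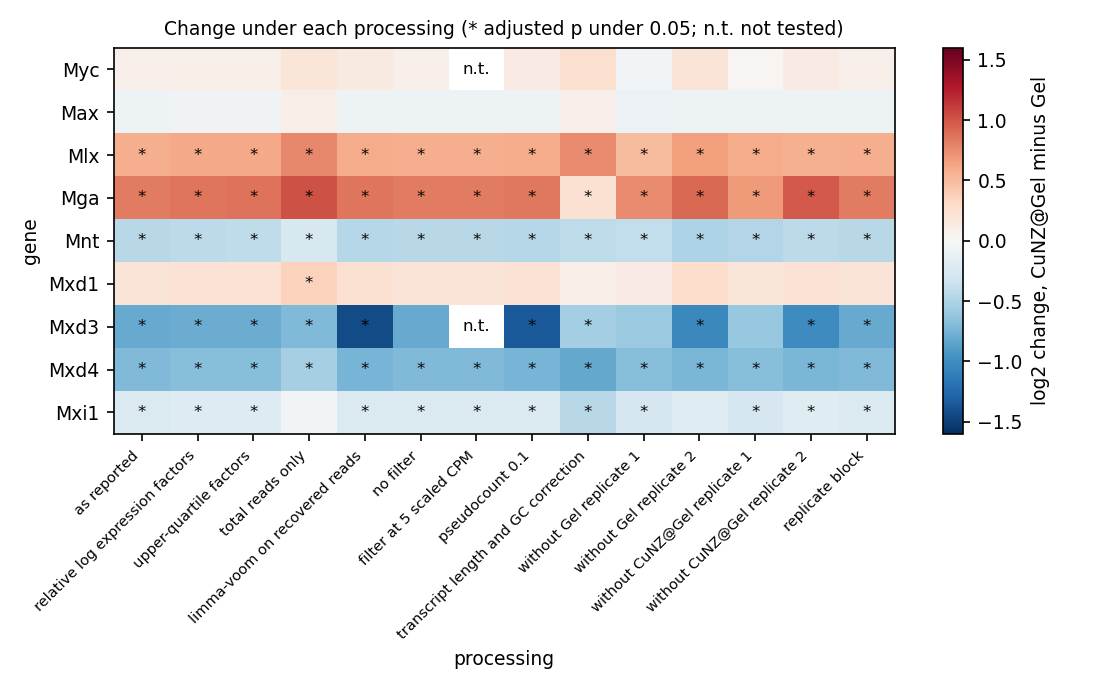
Log2 change (colour, CuNZ@Gel minus Gel) of the 9 network genes (rows) under the processing alternatives other than the minimum fold of 1.5 (columns), with an asterisk where limma's adjusted p was under 0.05. Mga, Mlx, Mnt and Mxd4 keep their direction and the asterisk in all columns shown. Mxd3 and Mxi1 lose it in some, and Mxd1 gains it with total reads only.

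A list of genes that MYC is known to activate was chosen with earlier results of these data known. Its split is thus a description and not a test of MYC targets. Of its 62 tested members, which are ribosome biogenesis, cell cycle and metabolic targets, 9 rose and 35 fell. The share called, 71.0%, was near the 67.1% of all tested genes, of which 32.2% were raised and 34.8% lowered. The median was -0.22, beside -0.03 for all tested genes. With total reads only, 14 rose and 25 fell and the median was -0.04, beside 0.15 for all tested genes under that scaling. Npm1, the nucleolar chaperone nucleophosmin, went from 3168 and 3110 to 1249 and 1337 scaled CPM, a log2 change of -1.28. Its processed pseudogenes may have taken or given reads, so its level is uncertain. Tcof1, the nucleolar factor treacle, went from 260 and 269 to 109 and 116 scaled CPM. Fbl, the ribosomal RNA methyltransferase fibrillarin, went from 224 and 193 to 82.8 and 95.5. Cdk4, the G1 kinase, went from 259 and 251 to 119 and 125. These 3 changed by -1.23, -1.22 and -1.06. Odc1, the rate-limiting enzyme of polyamine synthesis and a classical MYC target, moved against the others, from 96.7 and 101 to 176 and 176 scaled CPM, a rise of 0.83. The limma adjusted p of these 5 genes were 4.47e-10 or smaller.

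Targets were split by the motif shown above for Mlx, Max, Mnt and Mxd4. A promoter window was matched for 56 of them, and 16 held CACGTG, which is 28.6%, against 12.1% of the tested genes with a window. Of these 16, 3 were raised and 9 lowered (median -0.24). Of the 40 without it, 5 were raised and 22 lowered (median -0.22). The medians of the targets with and without the motif thus differed little.

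**Figure D5:**
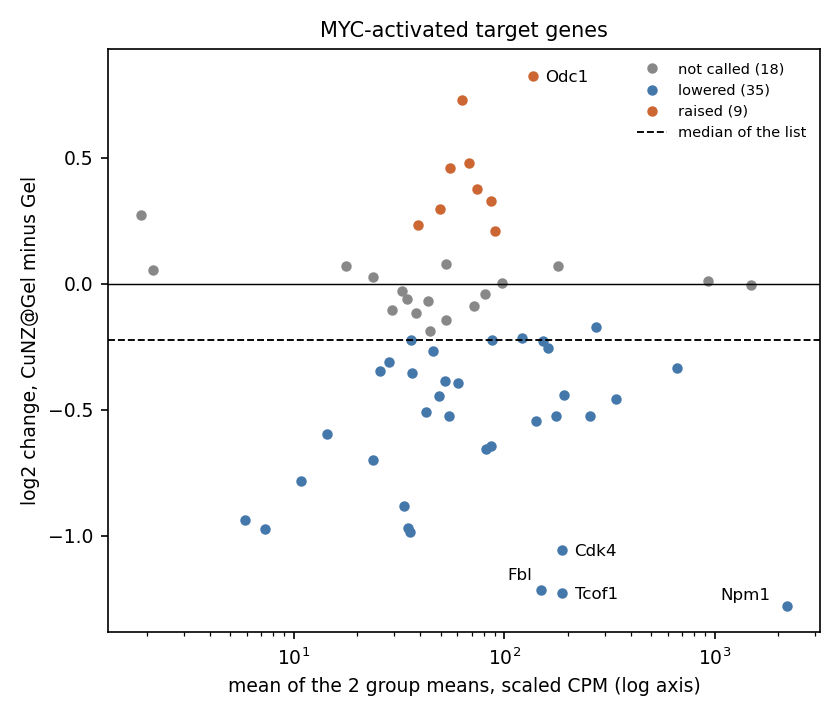
Log2 change (y axis, CuNZ@Gel minus Gel) against mean level (x axis, log scale, scaled CPM) for 62 MYC-activated target genes, coloured by the limma call. The dashed line is the list's median of -0.22. Npm1, Tcof1, Fbl and Cdk4 are the lowered genes and Odc1 the raised gene with the smallest p.

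Genes that MYC is known to repress moved both ways, with 3 of 8 tested members raised and 4 lowered (median -0.02, 87.5% called beside 67.1% of all tested genes), and 4 and 3 with total reads only. The cell cycle inhibitor genes Cdkn1a and Cdkn1b changed by 2.14 and -1.21, in opposite directions. Clu, the secreted chaperone clusterin, rose by 1.89, and the stress genes Gadd45b and Gadd45a fell by 1.87 and 1.44. Ndrg2 and Ndrg1, named after their values were seen, were at 0.15 and -0.17. Cdkn2b and Cdkn1c were listed at 0 in all 4 libraries.

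The libraries held between 13718000 and 14878000 recovered reads. Within a group they correlated across genes at a Pearson r of 0.995, and no pair agreed within sampling noise, with a chi-square per gene of 3.53 and 4.12 within groups and 116 to 141 between them. The 9 macrophage markers were present throughout, with summed levels of 5665 and 5832 scaled CPM in Gel and 9164 and 8924 in CuNZ@Gel. Of these markers 6 were raised and 2 lowered, which is 88.9% called. The share of all tested genes was 67.1%, with 32.2% raised and 34.8% lowered. Of 15 markers of other cell types, Cd3e, Ncr1, Mpo and Cpa3 were among those at 0 in all libraries, and the summed level was 0.870 and 1.56 in Gel and 2.90 and 2.85 in CuNZ@Gel. The marker tested among these, Pecam1, an adhesion molecule of endothelium that myeloid cells also carry, had 0.0725 and 0.0777 scaled CPM in Gel and 2.21 and 1.40 in CuNZ@Gel. The Gel values are 1 read each, under the level of 3 reads, and Pecam1 passed the filter through the CuNZ@Gel libraries alone, so its call as raised followed in part from the filter. The part of these shifts in the network results was not tested, and fewer transcripts per cell and fewer cells with a transcript cannot be told apart in bulk RNA.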

How the data were processed

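RNA sequencing of 2 Gel and 2 CuNZ@Gel libraries, grouped by title, was analysed. A CORALL kit was used, per the labels. The submitters' processing notes name GATK, STAR, Salmon, fastp and GRCm39. Roles, versions, the annotation and any use of strand or molecular identifiers were not given in the sources used here. The authors deposited 1 log2 value per symbol and library, which the values show to be log2(x + 1) with x as CPM divided by 1 factor per library (0.937, 0.936, 1.07 and 1.07). The smallest step gave recovered reads, and 92.6% to 93.5% of values of at most 1 were whole within 0.02 reads. The floor set by a count of 0 (3 reads) was 0.189 to 0.234 scaled CPM.

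Because the files held log2 values, limma 3.58.1 in R 4.3.3 was used with a variance trend on all 4 libraries, after a filter of 1 scaled CPM in 2 libraries, with a threshold of 0.05. The procedure was run on simulated counts with few changed genes and the same dispersion for every gene. These data differ, with 67.1% of tested genes called, so that run cannot vouch for the calls made here. Transcript length and GC were taken from the longest GENCODE vM21 model (95.8% of tested genes), used without coordinates. Alternatives were other scalings, limma-voom, filters of none and 5, a pseudocount of 0.1, a minimum fold of 1.5, a length and GC correction, each library left out, and the replicate number as a block.

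Members and gene lists were chosen with earlier results of these data known. Genes named were the 9 members, up to 5 called members of each list by smallest p, the members of the partner and MondoA target lists, and the 3 genes nearest to Myc. Any other gene was picked with its values in view and is so marked, apart from Sin3a, named as a scaffold, and Prelid1 and Psmc3ip, named for overlap.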

Additional observations from a re-analysis of the deposited data

How the results depend on the processing

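Mga, Mlx, Mnt and Mxd4 passed with the same sign under every alternative except the test against a minimum fold of 1.5, which Mga alone of the 9 passed. The Mga change was 0.24 after the length and GC correction, against 0.83 without it. The minimum fold test used values without that correction. It called 1015 genes raised and 940 lowered, against 3737 and 4033 without a minimum fold. Among the 9 members it called 1 raised and 0 lowered (0 lowered also at an unadjusted p under 0.05), and among MYC-activated targets 1 raised and 7 lowered. Scaling by total reads only gave 14 raised MYC-activated targets, against 9, and 5036 raised and 2869 lowered genes in all. The reversed value was that of Gsk3b after the length and GC correction (-0.0195, adjusted p = 0.814). The cause of these differences was not tested. With 1 library left out, 2 members were raised and 3 to 4 lowered, and 7 to 8 targets were raised and 27 to 34 lowered; the lone library of a group was then assumed to vary like the others. With the replicate number as a block, 3589 genes were raised and 3900 lowered, and of the MYC-activated targets 8 and 33. The calls of the 52 genes compared 1 by 1, the 9 members among them, did not change. Genes outside the naming rule were refitted but not compared 1 by 1. Same-numbered libraries had deviations that correlated at -0.116, and a crossed pairing, added after the data were seen, gave 4030 raised and 4340 lowered genes. The 2 planned count models were not run because the deposited values are not counts, and limma-voom on recovered reads, added after the data were seen, took their place. At its 16 to 25 reads per library, Myc had a 95% interval from -0.34 to 0.50.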

Other observations

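The 3 tested genes with at least 5 scaled CPM whose centred log2 values over the 4 libraries lay nearest to those of Myc were Mastl, Dars and Pcgf6, which encode the mitotic kinase Greatwall, an aspartyl-tRNA synthetase and the PRC1.6 subunit PCGF6. Their Euclidean distances from Myc were 0.0260, 0.0310 and 0.0330 on the log2 scale. None of the 3 passed limma's test, with changes of 0.10, 0.07 and 0.10 (adjusted p = 0.419, 0.475 and 0.489). Small changes followed from the choice by likeness to Myc, so they are not a separate result. With total reads only, Mastl and Dars passed, at 0.28 and 0.26 (adjusted p = 0.0278 and 0.0101). The likeness rests on 4 values per gene and on 16 to 25 Myc reads per library.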
